A study of Caenorhabditis elegans with 2 samples.

Results

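Sex in Caenorhabditis elegans is set by a chain of genes that begins with the count of X chromosomes and ends with the transcription factor TRA-1. In the hermaphrodite germline the same chain is tuned by RNA-binding proteins, so that sperm are made first and oocytes afterwards. SNPC-1.3, the protein studied here, is a paralogue of a subunit of the small nuclear RNA activating protein complex and drives piRNA transcription in the male germline; its own gene is known to be repressed by TRA-1 during oogenesis. The 10 genes described are sdc-1, tra-2, fem-1, fem-3, tra-1, fbf-1, nos-3, gld-1, fog-1 and fog-3. They were taken by name from the annotation, as 10 of its 19973 nuclear protein-coding genes. The rule uses names alone, but the set was proposed with results of these data in view, so its counts are a description. Regions were given to a gene by the distance of their summit, the position of greatest enrichment, from the gene's annotated 5′ end.

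The data were ChIP-seq region lists from strain YL485, whose worms carry SNPC-1.3 (F08F3.9) with GFP and FLAG at the C terminus. Whole young adult hermaphrodites, of unknown age in the labels, were used, and chromatin was precipitated with an antibody against GFP. There was 1 group of 2 biological replicates. Whole worms hold germline and soma together, so a region cannot be placed in either, and the sources used here do not say whether an untagged copy of the gene remained. With no second group, no comparison between conditions exists.

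Each replicate list and the list called from both replicates together held 30000 candidate regions, ranked here by the authors' signal value, where rank 1 is the strongest. The 1676 IDR peaks, regions that passed the authors' irreproducible discovery rate threshold, were the 1676 strongest of the pooled list; 1650 of them were nuclear. Their signal ran from 39.8 upwards with a median of 57.8, in the caller's own unit, which can be compared only within a list. Read depth was unknown.

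An IDR peak lay within 500 bp of the 5′ end at 4 of the 10 genes, nos-3, gld-1, sdc-1 and fem-1, against 5.94% of all protein-coding genes (1187 of 19973, Clopper-Pearson 95% interval 5.62 to 6.28%, counting error only). Within 1000 bp the count was also 4, against 7.78% of all genes. The 4 genes act at different levels of the chain: a regulator of the X chromosomes, a component of the male-promoting FEM complex and a pair of RNA-binding proteins of the germline. No IDR peak lay within 1000 bp of the 5′ end of tra-1, tra-2, fem-3, fbf-1, fog-1 or fog-3. Fewer of the genes were reached by 1 replicate alone. Among the 1676 strongest regions of replicate 1, 3 of the 10 genes had a summit within 500 bp (sdc-1, fem-1 and nos-3; 5.10% of all genes), and among those of replicate 2, 2 had one (nos-3 and gld-1; 5.79%). Only nos-3 was in both sets. Any pooled candidate, whatever its rank, lay within 500 bp of 8 of the 10 genes, against 35.1% of all genes. The counts were 8 in replicate 1 (36.4% of all genes) and 7 in replicate 2 (36.3%), and 9 within 1000 bp in the pooled list (45.7%).

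**Figure D1:**
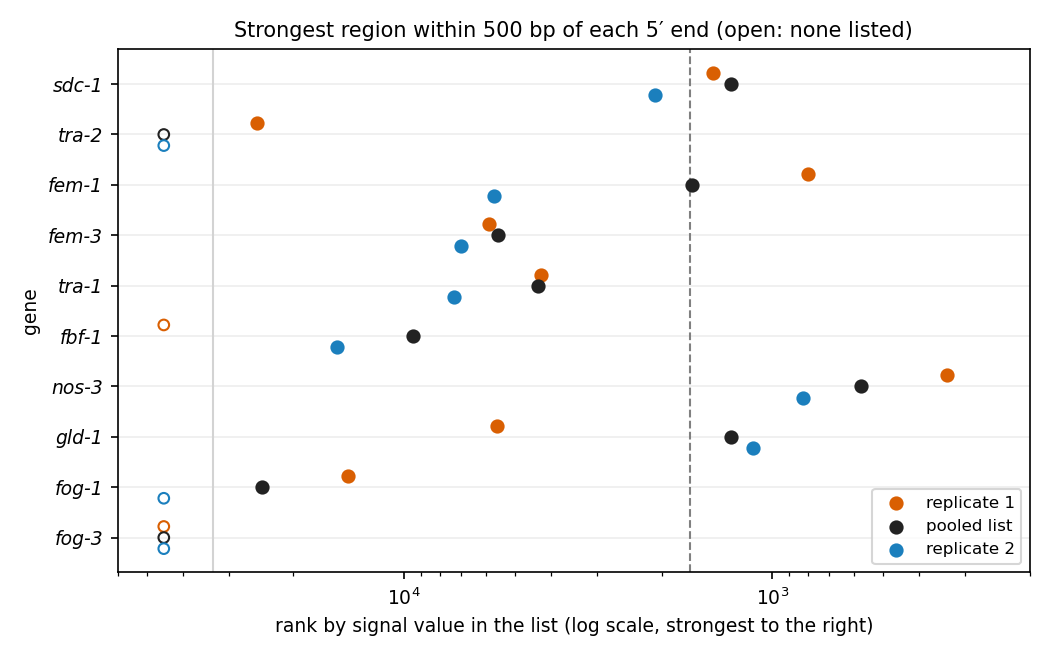
Rank of the strongest region within 500 bp of each gene's 5′ end (log axis, strongest to the right) in replicate 1, replicate 2 and the pooled list, with a dashed line at rank 1676 and open symbols where no region was listed. All 3 points of nos-3 lie right of the line, and sdc-1, fem-1 and gld-1 each have a replicate on either side of it.

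The head of the chain is sdc-1, which encodes a zinc-finger protein needed in XX animals for dosage compensation and hermaphrodite fate. The gene (WBGene00004745) lies on the plus strand of chromosome X, from 16275763 to 16282534. Its strongest region had a signal of 16.6 in replicate 1 (rank 1447), 25.1 in replicate 2 (rank 2088) and 45.4 in the pooled list (rank 1296). The summits agreed closely, at 285, 284 and 279 bp upstream of the 5′ end. Replicate 1 placed it among its 1676 strongest regions and replicate 2 just below them.

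Few genes of the chromosome that carries sdc-1 had such a peak. On the X chromosome an IDR peak lay within 500 bp of 19 of 2731 protein-coding genes (0.696%), compared with 3.44% on chromosome V and 10.5% on chromosome III. No other 5′ end of a protein-coding gene lay nearer than 5694 bp to that of sdc-1, where the divergent gene ifa-3 starts, and no tRNA, snRNA, snoRNA, rRNA, miRNA, spliced leader RNA or piRNA gene lay within 1000 bp. The base composition was also at the edge of the range. The window of 100 bp on either side of the summit was 51.7% G and C. This was equal to or above 98.3% of the 7570 pooled regions within 500 bp of a protein-coding 5′ end (median 34.8%). The 887 IDR peaks at such ends had a higher median, 37.8%, with an upper quartile of 42.3%. A high G and C share was not particular to sdc-1. Among the other genes with a window it ran from 26.4% at fog-1 to 49.3% at fem-3, equal to or above 97.0% of the regions.

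The sdc-1 region is shown whole because it lies entirely upstream of the annotated gene, from -417 to -142 bp relative to the 5′ end (ce11, chrX:16275346-16275621, plus strand). The 11 bases centred on the summit are in capitals.
sdc-1: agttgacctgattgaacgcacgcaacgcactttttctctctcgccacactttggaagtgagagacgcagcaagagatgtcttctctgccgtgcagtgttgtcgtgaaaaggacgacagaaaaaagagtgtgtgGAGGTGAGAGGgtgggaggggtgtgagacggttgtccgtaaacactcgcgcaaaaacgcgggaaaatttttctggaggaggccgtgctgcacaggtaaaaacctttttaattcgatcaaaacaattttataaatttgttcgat

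Next of these genes in the chain is tra-2, the membrane receptor that promotes hermaphrodite development and is inhibited by the male signal HER-1. This gene (WBGene00006605; chromosome II, 6955384 to 6965673, minus strand) had no pooled candidate within 500 bp of its 5′ end. The nearest upstream one was 697 bp away with a signal of 15.6 (rank 10989), and replicate 2 listed it 726 bp upstream with a signal of 11.3 (rank 12535). Replicate 1 listed instead a region 156 bp downstream, with a signal of 4.77 and the low rank of 25172. Within 500 bp upstream of tra-2 no list held a region.

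The FEM proteins form a complex that brings about the destruction of TRA-1 and promotes male and sperm fates. For fem-1 (WBGene00001411; chromosome IV, 5533140 to 5537962, minus strand), which encodes the ankyrin-repeat component, the signal was 21.8 in replicate 1 (rank 799), 15.8 in replicate 2 (rank 5692) and 40.2 in the pooled list (rank 1649). It was a strong region of replicate 1 and a middling one of replicate 2. The summit was 44 bp downstream of the 5′ end in replicate 1 and 61 bp upstream in replicate 2. In the pooled list it was 42 bp downstream, in the 5′ UTR, and 5 bp before the start of another annotated transcript of the gene. With a signal of 40.2 against a lowest value of 39.8, the fem-1 peak was close to the IDR threshold.

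The gene fem-1 shares its upstream region with drp-1, a divergent gene whose 5′ end is 526 bp from that of fem-1. The pooled summit was 568 bp from the drp-1 end and so counted for fem-1 alone. The replicate 2 summit, 61 bp upstream of fem-1, was within 500 bp of both ends. The gene also lies among piRNA genes, with 22 of them within 10000 bp of its 5′ end, but none within 1000 bp. None of the other 9 genes had more than 1 piRNA gene within 10000 bp.

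For fem-3 (WBGene00001413; chromosome IV, 9104966 to 9107607, plus strand), whose mRNA is repressed for the switch from sperm to oocytes, the signal was 9.38 in replicate 1 (rank 5874), 14.5 in replicate 2 (rank 7027) and 21.02 in the pooled list (rank 5558). Both replicates listed it at a similar middle rank, below their 1676 strongest regions. The summits were 44, 125 and 101 bp downstream of the 5′ end, and the pooled one fell in the 5′ UTR. The strongest region within 1000 bp in replicate 2 was another one, 667 bp upstream (signal 14.7, rank 6814), which replicate 1 did not list.

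At the end of the chain, TRA-1 is a zinc-finger factor of the GLI family that represses male genes. The gene tra-1 (WBGene00006604; chromosome III, 11170890 to 11195201, minus strand) had a signal of 10.6 in replicate 1 (rank 4252), 14.3 in replicate 2 (rank 7321) and 23.5 in the pooled list (rank 4332). The summits were 99, 209 and 212 bp upstream of the 5′ end. Of the 6 genes with no IDR peak, tra-1 had the strongest pooled region within 500 bp. Its nearest neighbouring 5′ end was 23049 bp away, so no other protein-coding start shares the region. A further 9 pooled candidates lay inside the 24312 bp of the gene, the strongest 6390 bp from the 5′ end in an intron (rank 7450).

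**Figure D2:**
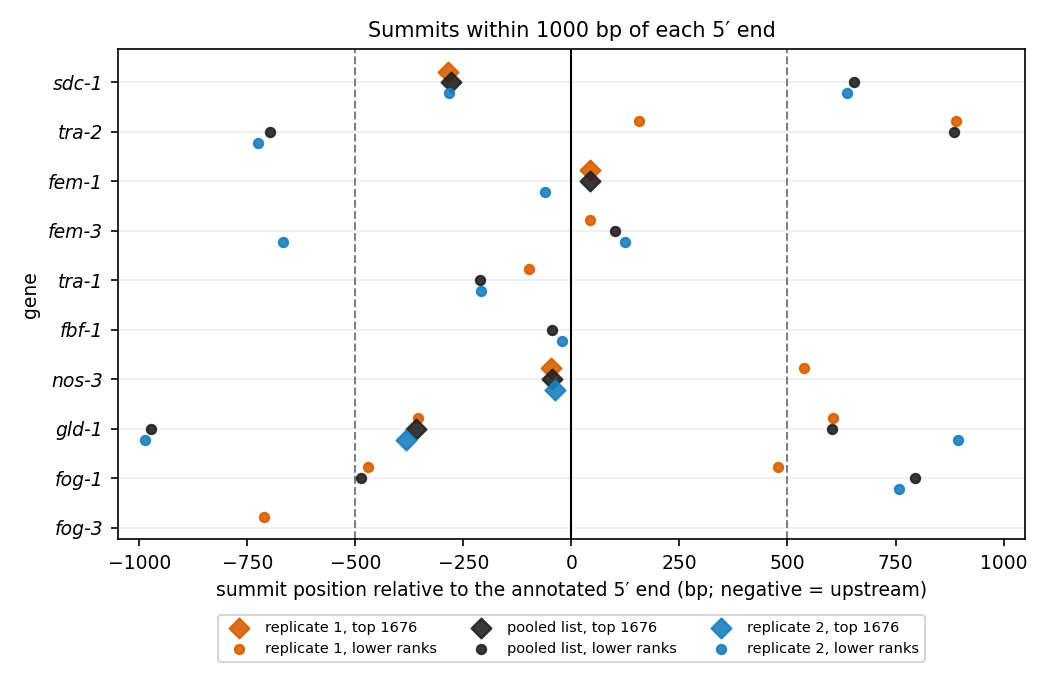
Position of each region's summit relative to the annotated 5′ end (bp) within 1000 bp, in replicate 1, replicate 2 and the pooled list, with diamonds for regions among the 1676 strongest of a list and dashed lines at 500 bp. The diamonds of nos-3 lie within 47 bp of the 5′ end in all 3 lists, and those of sdc-1 and gld-1 lie 279 bp or more upstream. All 3 genes also have regions downstream that are not among the 1676 strongest.

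The RNA-binding proteins FBF-1 and NOS-3 act together in repressing fem-3 mRNA. NOS-3 is a Nanos homologue that binds FBF. The gene nos-3 (WBGene00003785; chromosome II, 9746316 to 9750462, plus strand) had the strongest region of the 10 genes in the pooled list and in each replicate. Its signal was 30.6 in replicate 1 (rank 335), 40.4 in replicate 2 (rank 825) and 70.0 in the pooled list (rank 575). The summits lay 47, 39 and 46 bp upstream of the 5′ end. Only 1.88% of protein-coding genes had a pooled region of this rank or a stronger one within 500 bp, and nos-3 alone of the 10 genes was among the 838 strongest IDR peaks, which reached 2.96% of all genes.

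The nos-3 peak lay in a short divergent promoter. The gene Y53C12B.1 starts 238 bp away on the opposite strand, and the pooled summit was 192 bp upstream of that start. The peak is therefore counted for both genes, although nos-3 is the nearer. Of the 5 annotated transcripts, 4 start between 151 and 911 bp inside the outermost start.

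The part of the nos-3 region before the annotated 5′ end is shown because nos-3 had the strongest region of the 10 genes (ce11, chrII:9746132-9746315, plus strand), together with the part of the fem-1 region before its 5′ end (ce11, chrIV:5537963-5538057, minus strand). The 11 bases centred on the nos-3 summit are in capitals. The fem-1 summit lies past the 5′ end and is not among the bases printed.
nos-3: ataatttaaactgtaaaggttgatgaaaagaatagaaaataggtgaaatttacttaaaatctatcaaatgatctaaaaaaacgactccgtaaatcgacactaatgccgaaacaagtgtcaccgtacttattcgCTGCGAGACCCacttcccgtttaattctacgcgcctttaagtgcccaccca
fem-1: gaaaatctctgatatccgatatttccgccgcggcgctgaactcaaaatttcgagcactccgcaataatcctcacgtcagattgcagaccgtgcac

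For fbf-1 (WBGene00001401; chromosome II, 6078263 to 6080843, minus strand), a PUF-family protein, the pooled signal was 16.7 (rank 9482), with the summit 45 bp upstream. Replicate 2 listed the region with a signal of 10.3 (rank 15187), and replicate 1 listed none within 1000 bp. Its paralogue fbf-2, which has overlapping function, had a pooled region 46 bp upstream with a signal of 17.3 (rank 8757). There the replicates were the other way round: replicate 1 listed it with a signal of 6.67 (rank 13367) and replicate 2 did not list it within 500 bp.

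Part of the sequence of this pair is near-identical, and whether this affects the values was not tested. In the window of 100 bp on either side of the fbf-1 summit, 143 of 171 stretches of 31 bases (83.6%) occurred once in the genome, against 100% for the other 8 genes with a pooled candidate within 1000 bp. The block of 70 bases that the parts of both regions before the 5′ ends share was 97.1% identical, with 2 substitutions and no gaps. It is printed for each gene with the bases that differ in capitals (ce11, minus strand, chrII:6080844-6080913 for fbf-1 and chrII:6091495-6091564 for fbf-2).
fbf-1: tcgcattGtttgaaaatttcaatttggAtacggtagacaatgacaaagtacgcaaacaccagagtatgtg
fbf-2: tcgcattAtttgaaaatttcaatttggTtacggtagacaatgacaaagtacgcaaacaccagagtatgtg

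The genes described so far lie on chromosomes II, III, IV and X, and the other 3 on chromosome I, where an IDR peak lay within 500 bp of 8.86% of protein-coding genes.

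GLD-1 is a KH-domain RNA-binding protein that represses tra-2 mRNA in the hermaphrodite germline, which allows sperm to be made, and is required for oocyte development. The gene gld-1 (WBGene00001595; 7695681 to 7698222, plus strand) had a signal of 9.53 in replicate 1 (rank 5612), 34.7 in replicate 2 (rank 1128) and 45.4 in the pooled list (rank 1299). The summits lay 356, 383 and 360 bp upstream of the 5′ end. The place was the same in both replicates, but the region was strong in replicate 2 and middling in replicate 1, the reverse of fem-1. In replicate 1 the strongest region within 1000 bp was another one, 606 bp downstream (signal 9.58, rank 5530). No other protein-coding 5′ end lay within 500 bp of the pooled summit 360 bp upstream. The next one, that of T23G11.4, is 1361 bp from the start of gld-1.

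FOG-1, a cytoplasmic polyadenylation element binding protein, and FOG-3, a Tob family protein, are both needed for germ cells to become sperm. For fog-1 (WBGene00001481; 3211046 to 3217267, plus strand) the pooled candidate 486 bp upstream of the 5′ end had a signal of 10.4 (rank 24417). Replicate 1 listed it 471 bp upstream with a signal of 6.49 (rank 14178), and replicate 2 listed nothing within 500 bp. A stronger region lay inside the gene, 1607 bp from the 5′ end at -337 bp from an internal transcript start, with a signal of 19.6 in the pooled list (rank 6487). In replicate 2 that inner region had a signal of 16.7 (rank 4983) and in replicate 1 one of 6.63 (rank 13562).

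For fog-3 (WBGene00001483; 10016765 to 10018121, plus strand) the pooled list and replicate 2 held no region within 1000 bp of the 5′ end. Replicate 1 listed one 711 bp upstream with a signal of 7.06 (rank 11824). Of the 10 genes, fog-3 alone had no pooled candidate within 1000 bp of its 5′ end or in its body, which is only 1357 bp long. In replicate 2 the 3 genes with no region within 500 bp were fog-1, fog-3 and tra-2.

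In the pooled list the candidate just inside the distance of 500 bp was that of fog-1 at 486 bp. Just outside it were further candidates of gld-1 at 603 bp (signal 10.1, rank 25439) and sdc-1 at 654 bp (signal 14.4, rank 13089), and then that of tra-2 at 697 bp. None of these was an IDR peak, and tra-2 was the only gene of the 3 outside with no nearer pooled candidate. Single replicates ranked the outer gld-1 and sdc-1 regions higher. That of gld-1 was at 606 bp in replicate 1 (rank 5530), and that of sdc-1 at 638 bp in replicate 2 (rank 4580). The other replicate listed no region near these places. Among the 4 IDR peaks, those of nos-3 and fem-1 were within 250 bp of the 5′ end and those of sdc-1 and gld-1 were not.

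Differences between the replicates were set beside those of all 1649 IDR peaks with an overlapping region in both. The log2 of the replicate 2 rank over the replicate 1 rank was 0.53 for sdc-1, 1.30 for nos-3, -2.31 for gld-1 and 2.83 for fem-1, and the median of its absolute value over all these peaks was 0.98. A ratio as large in either direction was found for 70.4% of peaks in the case of sdc-1, 37.9% for nos-3, 13.8% for gld-1 and 8.73% for fem-1. A share of 981 IDR peaks overlapped one of the 1676 strongest regions of both replicates, and of the 4 peaks here only that of nos-3 did. With 2 replicates and no read counts, no error could be put on a single rank.

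**Figure D3:**
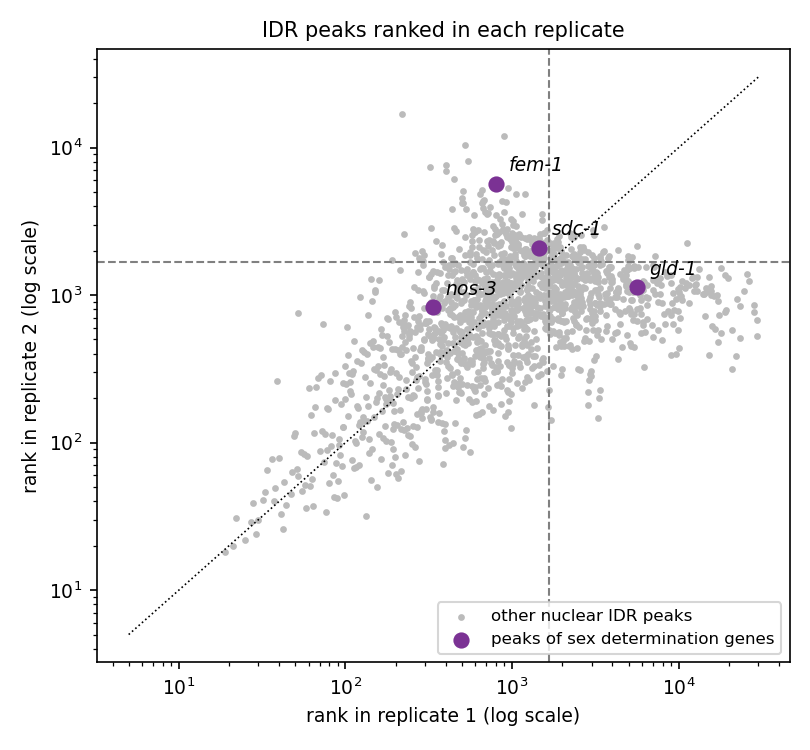
Ranks of nuclear IDR peaks in replicate 1 and replicate 2 (both log axes), with the peaks of the 4 sex determination genes in purple, dashed lines at rank 1676 and a dotted line of equal rank. The peak of nos-3 is stronger than rank 1676 on both axes, whereas fem-1 (ranks 799 and 5692) and gld-1 (5612 and 1128) lie on opposite sides of the diagonal.

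The share of the 10 genes lay above that of all genes at each of the ranks considered, from 838 to 30000. A pooled region of rank 5000 or better was within 500 bp of 5 of the 10 genes, against 13.7% of all protein-coding genes, and one of rank 10000 or better was within 500 bp of 7, against 19.7%. A pooled region as strong as that of tra-1 lay within 500 bp of 12.6% of all genes, and the shares were 14.6% for fem-3, 19.2% for fbf-1 and 31.6% for fog-1. With genes that had no candidate placed last, the median member ranked between 4332 and 5558, while the median of all genes had no candidate. The genes were listed with results of these data in view, so this difference carries no test.

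**Figure D4:**
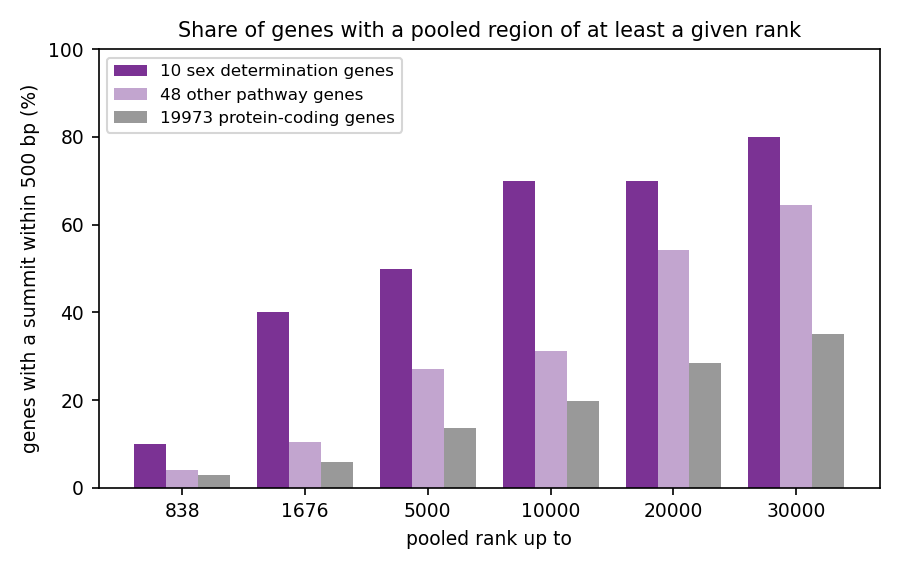
Share of genes (%) with a pooled summit within 500 bp of the 5′ end at or above a given rank, for the 10 sex determination genes, 48 other genes of the pathway and all 19973 protein-coding genes. At rank 1676 the bars stand for 4 of 10, 5 of 48 and 1187 of 19973 genes.

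Other genes of the pathway were taken from 5 lists of 49 names, of which 48 matched the annotation by name; mog-6 was not analysed here. Of the 48 genes, 5 had an IDR peak within 500 bp, against 5.94% of all protein-coding genes, and 31 had any pooled candidate there, against 35.1%. The 5 were daz-1, atx-2, mag-1, mog-5 and mix-1. The first 4 of these belong to the list of the germline switch from sperm to oocytes, where 4 of 21 genes had a peak and 18 any candidate, to be read against the same shares of all genes.

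The daz-1 gene, which encodes a DAZ-family RNA-binding protein needed for oogenesis, had the strongest pooled region within 500 bp among the 10 genes and the 48. Its signal was 23.2 in replicate 1 (rank 688), 64.4 in replicate 2 (rank 261) and 80.5 in the pooled list (rank 396), with the pooled summit 228 bp upstream. The gene atx-2, whose product is the worm homologue of ataxin-2, had a signal of 25.04 in replicate 1 (rank 568), 39.8 in replicate 2 (rank 850) and 63.9 in the pooled list (rank 681), with the pooled summit 40 bp upstream. Stronger regions lay farther out, an IDR peak 658 bp upstream of atx-2 (signal 85.0, rank 341) and one 673 bp upstream of larp-1, which encodes a La-related RNA-binding protein (signal 159, rank 63). The larp-1 peak made the count of pathway genes 6 within 1000 bp, against 7.78% of all genes. This peak was 124 bp wide, less than the usual 276 bp of the pooled list. The larp-1 region 4 bp upstream of the 5′ end had a pooled signal of only 12.7 (rank 17085). Within 500 bp, daz-1 and atx-2 were both among the 1676 strongest regions of each replicate, as nos-3 was.

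Further genes needed for the switch to oocytes had weaker peaks. For mog-5, which encodes a DEAH-box protein related to splicing factors, the signal was 22.8 in replicate 1 (rank 716), 28.4 in replicate 2 (rank 1662) and 45.9 in the pooled list (rank 1282), and it too was among the 1676 strongest of each. For mag-1, the homologue of Mago nashi, it was 11.3 in replicate 1 (rank 3601), 36.1 in replicate 2 (rank 1022) and 46.4 in the pooled list (rank 1251). Below the IDR threshold but near it were rnp-8, a partner of the poly(A) polymerase GLD-2, with a pooled signal of 38.2 (rank 1793), and mog-3 with 36.5 (rank 1928). The mog genes differed widely, since mog-2 and mog-7 had pooled ranks of 11058 and 11352.

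The X signal and dosage switch list, which holds xol-1 and the partners of sdc-1, had the fewest candidates of the 5 lists. None of its 8 genes, 5 of them on the X chromosome, had a pooled candidate within 500 bp, against 35.1% of all genes. The share of X chromosome genes with a pooled candidate was not calculated, and 0.696% of them had an IDR peak there. In the pooled list the sdc-1 peak had no counterpart within 500 bp of sdc-2 or sdc-3. Single replicates listed weak regions at sdc-3 (rank 17031) and fox-1 (rank 28457), both in replicate 1.

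All 7 genes in the list of the dosage compensation complex, none of them on the X chromosome, had a pooled candidate within 500 bp. Across all genes, those of the X chromosome included, the share was 35.1%. The list of the complex leaves out the sdc genes. In it mix-1, a condensin subunit that also serves in mitosis, had an IDR peak. Its signal was 6.22 in replicate 1 (rank 15530), 35.4 in replicate 2 (rank 1066) and 42.1 in the pooled list (rank 1508), so that replicate 2 held it among its strongest regions and replicate 1 did not. The mix-1 summit was also at -138 bp from the 5′ end of R06F6.12. The next in that list were dpy-30 at pooled rank 4572 and dpy-26 at 5252. The candidates of dpy-21, dpy-28, capg-1 and dpy-27 were weaker, with pooled ranks from 12871 to 23808.

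No gene of the lists of global sex determination (7 genes, 5 with a candidate) or of outputs of TRA-1 (5 genes, 1 with a candidate) had an IDR peak within 500 bp; a candidate was there for 35.1% of all genes. Among them, fem-2, the protein phosphatase partner of the FEM proteins described above, had a pooled signal of 14.5 (rank 13034), and no candidate was listed within 500 bp of her-1 or mab-3. The gene fog-2, which works with gld-1 on tra-2 mRNA and belongs to the list of the germline switch, had a pooled signal of 27.05 (rank 3257).

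**Figure D5:**
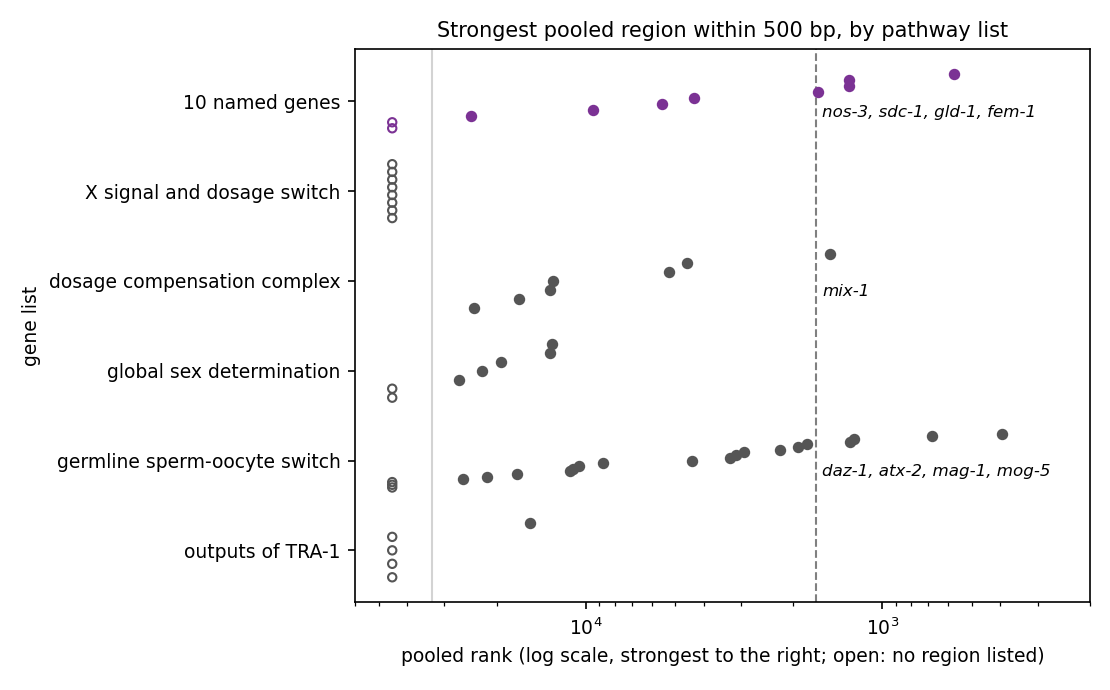
Pooled rank (log axis, strongest to the right) of the strongest region within 500 bp for each gene of the 10 and of the 5 pathway lists, with open symbols for no region and a dashed line at rank 1676. The genes right of the line are nos-3, sdc-1, gld-1 and fem-1, then mix-1 alone in its list, and daz-1, atx-2, mag-1 and mog-5 in the list of the germline switch.

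Sequence patterns were searched on both strands in windows of 100 bp on either side of the strongest pooled summit within 500 bp of each gene (for tra-2, within 1000 bp), which gave 9 windows, and in the 7570 windows of all pooled regions at protein-coding 5′ ends. CTGTTTCA, known from the promoters of piRNA genes, was in none of the 9 and in 1.62% of all windows. The B box form GTTCNANNC, an internal element of tRNA genes, was in none of the 9 and in 6.61% of all. The pattern TATAAA was in the windows of 4 genes, tra-1, nos-3, gld-1 and fog-1, and in 23.5% of all.

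The pattern TGGGNGGTC, a form of the site bound by TRA-1 and related GLI factors, was in 2 of the 9 windows, those of fem-3 and fog-1, and in 0.304% of all (23 of 7570). The fem-3 match, GACCACCCA on the gene's strand (ce11, chrIV:9105100-9105108), lay 134 to 142 bp downstream of the 5′ end in the 5′ UTR. The fog-1 match began at -557 bp from its 5′ end. Neither gene had an IDR peak, and these matches describe the letters only.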

How the data were processed

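The GFP ChIP-seq was deposited as ce11 and ce10 region lists for 2 biological replicates, numbered per the labels. Per the deposited notes, regions were called from each replicate, and from both pooled, against 1 control, and the IDR list was made from these 3 lists (aligner, caller and threshold: not given in the sources used here). Deposited signal values have the authors' own unit, and the deposited −log10 q-value was at its ceiling for most IDR peaks, so ranks by signal were used. Candidate regions had one usual width per list (276 bp pooled, 270 bp in the replicates). The ce10 lists were not used, since no annotation of that build was at hand.

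Genes and 5′ ends came from the Ensembl release 115 annotation of WBcel235 (ce11), and sequences from the RefSeq genome of the same assembly, in which every region fell within its chromosome. Starts were converted to 1-based positions. A gene was called by an IDR summit within 500 bp of its annotated 5′ end. Short RNA genes were counted within 250 bp of a summit in the alternative that leaves them out. No test was run, because there is 1 group and the members and lists were chosen with earlier results of these data known. Named were the 10 genes, every pathway gene with an IDR peak and genes sharing a peak; the other pathway genes and neighbours named were chosen after their values were seen. The calling rules were tested on simulated data. Python 3.11.15, numpy 2.4.6, pandas 2.3.3, scipy 1.17.1 and Biopython 1.88 were used. Alternatives were other windows, any transcript start, any overlap, the 838 strongest IDR peaks, each replicate alone and peaks of 1 gene only.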

Additional observations from a re-analysis of the deposited data

How the results depend on the processing

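The count of 4 sex determination genes with an IDR peak was unchanged, with the same 4 genes, within 1000 bp, from any annotated transcript start, by any overlap of the region, and when only peaks nearest to the gene and away from short RNA genes were kept. It was 2 within 250 bp (nos-3 and fem-1) and 1 among the 838 strongest IDR peaks (nos-3). Leaving out a replicate gave 2 genes without replicate 1 (nos-3 and gld-1) and 3 without replicate 2 (sdc-1, fem-1 and nos-3). The count of 5 other pathway genes was 2 among the 838 strongest peaks and 5 or 6 under the other alternatives. The genes changed when a replicate was left out. Without replicate 2 the 5 were dpy-30, rnp-8, daz-1, mog-5 and atx-2. Without replicate 1 the 6 were mix-1, daz-1, mog-3, mog-5, atx-2 and mag-1. The share of all protein-coding genes, 5.94%, was 3.68% within 250 bp, 7.78% within 1000 bp and 2.96% for the 838 strongest peaks. It was 6.30% from any annotated transcript start and 6.52% by any overlap of the region. When only peaks nearest to the gene and away from short RNA genes were kept, it fell to 4.06%. No paired analysis was possible because there is 1 group and no test. Depth is unknown, so a gene with no listed region is not shown to lack the protein, and the replicates shared 1 control.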

Other observations

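Candidates were also listed at the 3′ ends of these genes, a feature looked at after the values were seen. A pooled summit lay within 500 bp of the annotated 3′ end at 7 of the 10 genes (35.9% of all protein-coding genes), and at 6 of them, tra-2, fem-1, fem-3, nos-3, gld-1 and fog-1, it was more than 500 bp from any protein-coding 5′ end (24.7% of all genes). The tra-2 region was itself an IDR peak (signal 43.7, rank 1404; 1.76% of all genes had such a peak away from 5′ ends). Its summit was 23 bp past the 3′ end of tra-2, in the 3′ UTR of the neighbouring gene ceh-38, and the strongest replicate regions there had signals of 14.1 in replicate 1 (rank 2066) and 30.6 in replicate 2 (rank 1445).

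In gld-1 a pooled region at -449 bp from the 3′ end had a signal of 30.9 (rank 2549), and another 117 bp past it, at the start of T23G11.10, had one of 32.0 (rank 2418). Replicate 2 ranked them 1657 and 2033, while replicate 1 listed only the second, at rank 7275. At nos-3 the region in the 3′ UTR had a signal of 26.6 (rank 3374), with ranks of 2349 in replicate 1 and 6701 in replicate 2. At fem-1 the region at the 3′ end had a pooled signal of 23.8 (rank 4223), with ranks of 4933 and 13270. None of these was tested.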
